A study of Mus musculus with 2 samples.

Results

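MHC class I assembly genes encode the parts that put a peptide-loaded class I molecule on the cell surface. The 9 genes considered were the light chain gene B2m, the heavy chain genes H2-K1, H2-D1, H2-Q1, H2-T23 and H2-M3, the peptide transporter genes Tap1 and Tap2, and the tapasin gene Tapbp. A probe belonged to one of them if its RefSeq accession, with the version dropped, mapped to that symbol in a table of mouse RefSeq genes. By this rule 5 of the 9 genes were measured, each by 1 probe of the 21052 gene probes on the array: B2m, H2-Q1, H2-T23, H2-M3 and Tap2. H2-K1, H2-D1, Tap1 and Tapbp were matched to no probe and were not analysed here.

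Class I molecules consist of a polymorphic or non-classical heavy chain, the invariant light chain beta-2 microglobulin, and a peptide. Proteasomes cut cytosolic proteins, the Tap1-Tap2 transporter carries the peptides into the endoplasmic reticulum, and tapasin with calreticulin and the disulfide isomerase ERp57 helps load them. Interferon-gamma raises most of these genes together. Embryonic stem (ES) cells are known for low surface class I, which increases on differentiation or interferon treatment.

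The tested RNA came from 2 samples of EB5 mouse ES cells, a line grown without feeders on gelatin, that received Klf4 siRNA together with the plasmid pCAGEGFP-IP (siKlf4 ES cells, n = 2). A day of culture (24 h) was followed by 24 h with puromycin, which selects cells that took up the plasmid, so both samples share the siRNA, the plasmid and the drug. The reference on both arrays was Universal Mouse Reference RNA, an equal pool from 11 cultured cell lines of embryo, embryo fibroblast, kidney, liver, alveolar macrophage, B lymphocyte, T lymphocyte, mammary gland, myoblast, skin and testis origin. Both arrays had ES RNA in Cy3 and reference RNA in Cy5, with no dye swap, so dye and sample cannot be told apart. Untransfected or control-siRNA ES cells were not analysed here, and the ratios below therefore set siKlf4 ES cells against a pool of other cell types and give no effect of the siRNA. Klf4 itself had 1826 and 2543 intensity units in siKlf4 ES cells, against 1518 and 1603 in the reference. The labels number the samples 1 and 2 without saying whether they are separate cultures, so p-values measure only the spread between these samples, which may be technical.

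The 60-base probes are what each measurement rests on, and are shown 5′ to 3′ as the array files give them. Only the first 30 bases are shown for B2m.

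B2m: gcagttactcatctttggtctatcacaaca
H2-Q1: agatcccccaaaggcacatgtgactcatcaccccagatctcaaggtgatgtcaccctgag
H2-T23: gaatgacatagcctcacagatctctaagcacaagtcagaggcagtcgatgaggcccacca
H2-M3: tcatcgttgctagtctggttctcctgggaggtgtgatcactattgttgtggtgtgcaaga
Tap2: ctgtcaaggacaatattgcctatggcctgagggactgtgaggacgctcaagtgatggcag

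The H2-Q1, H2-T23, H2-M3 and Tap2 probes each had 1 of 3 reading frames free of stop codons, and the B2m probe had 0. No run of 15 bases of the B2m, H2-T23, H2-M3 or Tap2 probe occurred in any of the other 21051 gene probes. The H2-Q1 probe shared such a run with 2 of them, a probe of Aadac and a probe without a gene name. Heavy chain genes are close relatives of each other, and transcripts without a probe of their own could not be compared with these sequences here.

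All 5 measured genes were lower in siKlf4 ES cells, from B2m at a log2 ratio of -3.81 to H2-M3 at -0.50, with a median of -1.66. Over all probes tested, 31.4% were lower at the same threshold (limma, adjusted p under 0.05), and the count of 5 is to be read against that share. At least 2-fold lower were 4 of the 5 genes, B2m, H2-T23, H2-Q1 and Tap2, where 5.19% of all probes were at least 2-fold lower and 5.08% at least 2-fold higher. The same 4 lay below the range of the negative control spots, as did 10.8% of all probes. The median over all 21028 probes was -0.01. Of these probes, 36 had a lower ratio than B2m, 409 a lower one than H2-T23, 494 than H2-Q1, 746 than Tap2 and 2357 than H2-M3. The reference is a pool, so much class I RNA in a few of its cell lines and less in many cannot be told apart.

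Signals are given as the mean spot signal minus the local background median, in intensity units. Each array held 162 negative control spots without mouse sequence, whose 95th percentile serves as the lower limit of measurement: 155 and 178 units for ES RNA (arrays 1 and 2), with 40.9 and 58.4 units for reference RNA. All 5 genes were above this limit in the reference on both arrays, and 3 of them in the ES channel on both arrays. None of the 5 probes was saturated. These units still hold each channel's own offset, a negative control median of 129 and 138 units for ES RNA and 28.5 and 32.3 for reference RNA. Log2 ratios, folds and bounds come from signals after background correction and normalisation, so they differ from quotients of the units printed.

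B2m encodes beta-2 microglobulin, the light chain that every classical class I molecule needs to leave the endoplasmic reticulum. Its probe read 618 and 691 units in siKlf4 ES cells, against 9072 and 9125 in the reference. The channels lay far apart on both arrays, and the ES signal was well above the negative control limit, so the ratio is measured on both sides. The log2 ratio was -3.77 and -3.86 on the single arrays and -3.81 ± 0.062 on average (SD, n = 2), 14.1-fold below the reference (limma, adjusted p = 4.91e-07, 95% interval -3.92 to -3.71).

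H2-Q1 is a heavy chain gene of the Q region. It read 233 and 263 units in siKlf4 ES cells, against 609 and 651 in the reference, and the channels did not overlap. Its log2 ratio was -1.63 and -1.68, with a mean of -1.66 ± 0.035 (SD, n = 2), 3.16-fold lower (limma, adjusted p = 2.26e-06).

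H2-T23 encodes the heavy chain of Qa-1, which presents leader peptides of other class I chains to the CD94-NKG2A receptor of natural killer (NK) cells. It read 172 and 171 units in siKlf4 ES cells, against 409 and 408 in the reference. The ES signal was above the negative control limit on array 1 but not on array 2, so the size of the difference is uncertain. The log2 ratio was -1.74 and -1.93, with a mean of -1.83 ± 0.13 (SD, n = 2) or 3.56-fold lower (limma, adjusted p = 5.15e-06), and with the ES signal of array 2 raised to the limit it was 3.47-fold lower.

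H2-M3 encodes a non-classical heavy chain that presents N-formylated peptides of bacterial or mitochondrial origin. It read 439 and 443 units in siKlf4 ES cells, against 575 and 541 in the reference. It was the member nearest to the reference, at log2 ratios of -0.45 and -0.55 and a mean of -0.50 ± 0.072 (SD, n = 2), 1.41-fold lower (limma, adjusted p = 0.000253). The negative control spots reached a log2 ratio of 0.52 in size, so this mean is no further from 0 than control spots were. It passed the test as lower, as did 9 of the 162 control spots, while 115 of them passed in either direction.

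Tap2 encodes one chain of the peptide transporter. Its probe read 161 and 165 units in siKlf4 ES cells, against 235 and 238 in the reference. As with H2-T23, the ES signal exceeded the limit on array 1 only. The log2 ratio was -1.24 and -1.37, with a mean of -1.31 ± 0.091 (SD, n = 2), 2.48-fold lower (limma, adjusted p = 8.38e-06) or 2.36-fold with the ES signal raised to the limit.

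**Figure D1:**
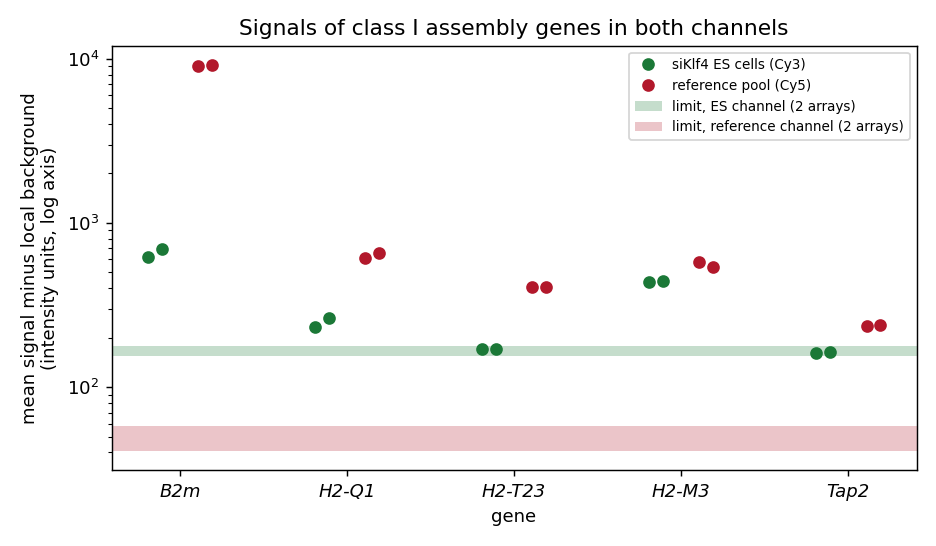
Mean signal minus local background (intensity units, log axis) of the 5 measured class I assembly genes in siKlf4 ES cells (green, Cy3) and in the reference pool (red, Cy5), 1 point per array, with bands from the lower to the higher negative control limit of the 2 arrays in each channel. The reference points lie above the ES points for every gene, and the ES points of H2-T23 and Tap2 lie in the band of the ES limit.

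The arrays differed by 0.05 to 0.19 in log2 ratio for the 5 genes, less than any of their distances from 0. In order from the lowest, the genes stood as B2m, H2-T23, H2-Q1, Tap2 and H2-M3. The 95% intervals of H2-T23 and H2-Q1 overlapped, at -1.97 to -1.69 for H2-T23 and -1.75 to -1.56 for H2-Q1. The intervals of the other neighbours did not overlap, Tap2 spanning -1.42 to -1.19 and H2-M3 -0.60 to -0.39. All these intervals hold only the spread between the 2 arrays. Other settings moved H2-T23 between -2.25 and -0.69 and Tap2 between -1.70 and -0.42, so the order of genes was not settled by them. Without background correction H2-Q1 stood at -0.78 and below H2-T23 at -0.69, Tap2 at -0.42 and H2-M3 at -0.28, and only B2m, at -3.12, was still at least 2-fold lower. That setting leaves the local background in both channels, and the cause of the shift was not tested.

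**Figure D2:**
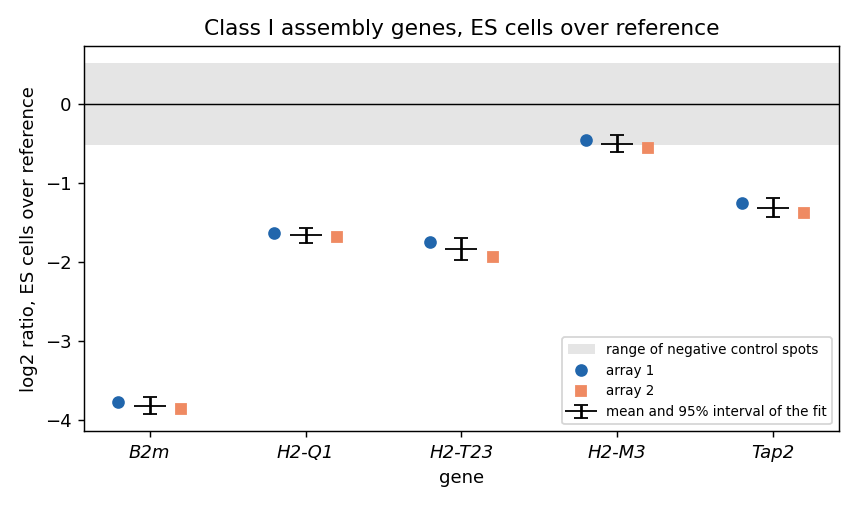
Log2 ratio of siKlf4 ES cells over reference for each measured gene on array 1 (circles) and array 2 (squares), with the mean and the 95% interval of the limma fit, and the range of the negative control spots in grey. B2m lies lowest at -3.81, and the mean of H2-M3, at -0.50, lies inside the grey range.

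**Figure D3:**
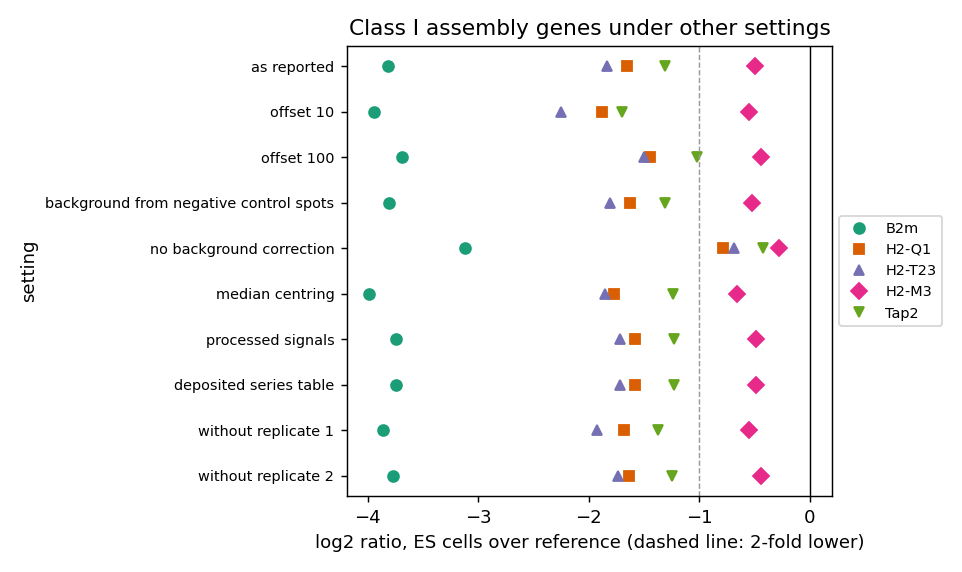
Log2 ratio of siKlf4 ES cells over reference (x axis) for the 5 genes under the reported setting and 9 others, including each array alone. All points lie below 0, and without background correction H2-Q1, H2-T23 and Tap2 move to the right of the dashed line at 2-fold lower.

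Promoters are shown because class I promoters share known elements. Whether these elements bear on the ratios was not tested. The RefSeq promoter table (GRCm38.p6) held 3 of the 5 measured genes, B2m, H2-T23 and H2-M3. The 200 bases before each start are given 5′ to 3′ on the gene's strand, B2m at chr2:122147487-122147686 on the plus strand, H2-T23 at chr17:36032702-36032901 on the minus strand and H2-M3 at chr17:37270034-37270233 on the plus strand. Capitals mark the core TTTCNNTT of the interferon-stimulated response element, TGACG (the X2 box, bound by CREB and ATF factors) and ATTGG (the Y box, bound by NF-Y), each on either strand.

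B2m: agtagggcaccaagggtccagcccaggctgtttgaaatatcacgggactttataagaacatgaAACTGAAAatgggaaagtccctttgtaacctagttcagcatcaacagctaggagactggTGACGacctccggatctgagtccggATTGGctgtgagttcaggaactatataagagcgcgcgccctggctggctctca
H2-T23: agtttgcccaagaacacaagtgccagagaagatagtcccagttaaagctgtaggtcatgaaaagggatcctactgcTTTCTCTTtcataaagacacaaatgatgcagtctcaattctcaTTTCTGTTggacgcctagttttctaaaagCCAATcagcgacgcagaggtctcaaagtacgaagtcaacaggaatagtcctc
H2-M3: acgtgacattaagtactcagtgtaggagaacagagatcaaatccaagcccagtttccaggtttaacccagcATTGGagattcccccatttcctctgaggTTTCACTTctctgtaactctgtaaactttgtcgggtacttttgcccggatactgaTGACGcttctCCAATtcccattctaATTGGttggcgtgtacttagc

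The full interferon element, the core extended by TC, was found in B2m and H2-T23 and in 2.27% of 32851 promoter windows of this length. The core was in all 3 and in 17.0% of windows. TGACG on the gene's strand followed within 40 bases by a Y box in either direction, the order of the SXY module of MHC promoters, was in B2m (-78 and -53 from the start) and in H2-M3 (-46, with Y boxes at -36 and -21), and in 0.874% of windows. H2-T23 held a Y box at -52 and no TGACG. Of kappa B motifs a single form was searched, GGG and CCC with NNTN between them. Those letters were in none of the 3 windows and in 3.57% of all, and among the genes without a probe they were in H2-K1 and H2-D1. These matches describe letters in a window and are not binding sites shown to be used in these cells.

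Class I and class I-like chains as a list lay on both sides of the reference. Of 28 genes listed, 16 were measured, the 4 class I chains above included. Lower were 9, those 4 among them, higher 2 and 5 did not pass. The median log2 ratio, with those 4 counted, was -0.35. Against this stand 31.4% lower and 31.6% higher over all probes. Beyond the range of negative control spots lay 6 of the lower and 2 of the higher chains, beside 10.8% and 12.1% of all probes. H2-T22, a non-classical chain recognised by some gamma-delta T cells, was the lowest after B2m. It read 288 and 326 units in siKlf4 ES cells, against 1499 and 1507 in the reference, a log2 ratio of -2.42 ± 0.0036 (SD, n = 2) or 5.34-fold (limma, adjusted p = 8.45e-07). Fcgrt, the heavy chain of the neonatal Fc receptor, which pairs with B2m, stood at -1.80, although its ES signal passed the negative control limit on 1 array only. H2-Bl went the other way, with 409 and 469 units in siKlf4 ES cells against 112 and 125 in the reference, 2.42-fold higher at 1.28 ± 0.019 (SD, n = 2; limma, adjusted p = 4.48e-06). Cd1d1, which presents lipids to natural killer T cells, was the other higher gene at 0.60. H2-T3, H2-M9 and H2-T24 were above the limit in neither channel on either array, so their values near 0 carry no information on the RNA.

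In the transport and loading list, 8 of 11 genes were measured, 5 lower, 2 higher and 1 not passed, with a median of -0.26. Over all probes, 31.4% were lower and 31.6% higher. Tapbpl, a tapasin relative that edits the bound peptide, was next to Tap2 at -1.31 ± 0.14 (SD, n = 2), with 222 and 223 units in siKlf4 ES cells against 401 and 411 in the reference. The general chaperones of the endoplasmic reticulum lay nearer to the reference: Hspa5 (BiP) stood at -0.79 and the calreticulin gene Calr at -0.25. Ganab, the glucosidase II subunit that trims glycans for calnexin and calreticulin, stood at 0.37. Erap1, the aminopeptidase that trims peptides inside the endoplasmic reticulum, stood at -0.27. Only Tapbpl, Tap2 and Hspa5 of this list lay beyond the range of the negative control spots.

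Genes that supply the peptides lay on both sides of the reference. All 13 were measured, 7 lower, 5 higher and 1 not passed, at a median of -0.31, where 31.4% of all probes were lower and 31.6% higher. Beyond the range of negative control spots lay 5 of the lower and all 5 higher, beside 10.8% and 12.1% of all probes. The immunoproteasome subunit Psmb8 was lowest, with 193 and 216 units in siKlf4 ES cells against 2521 and 2516 in the reference, a log2 ratio of -3.84 ± 0.000695 (SD, n = 2) or 14.3-fold (limma, adjusted p = 4.71e-07). Its ES signal was above the negative control limit of 155 and 178 units, but not by much. The size of this fold is therefore less certain than the SD shows. Psme2 and Psme1, the subunits of the interferon-inducible PA28 activator, stood at -2.42 and -1.86, and the immunoproteasome subunit Psmb9 at -1.72. Lap3, a cytosolic leucine aminopeptidase, was the highest at 1.60, followed by Psmb7, a catalytic subunit of the constitutive proteasome, at 1.19. Each immunoproteasome subunit replaces a constitutive one, and in all 3 pairs the immunoproteasome subunit had the lower ratio: Psmb8 at -3.84 against Psmb5 at -0.32, Psmb9 at -1.72 against Psmb6 at 0.53, and Psmb10 at -0.92 against Psmb7. These pairs were chosen after the values were seen, and the difference within a pair was not tested.

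Of 25 genes listed for the control of class I transcription, in either direction, 20 were measured. Of these 14 were lower, 4 higher and 2 not passed, at a median of -0.31, beside the same 31.4% and 31.6% over all probes. Only 7 of the lower and 1 of the higher lay beyond the range of negative control spots, beside 10.8% and 12.1% of all probes. Nlrc5, the class I transactivator, was among the 5 without a probe. Irf2, an interferon regulatory factor, was below the negative control limit in siKlf4 ES cells on both arrays (123 and 130 units), against 441 and 453 in the reference, and at least 4.17-fold lower on the normalised scale. The kinase gene Jak1 stood at -2.02 and -1.97 on the single arrays and the chains of the interferon-gamma receptor, Ifngr1 and Ifngr2, at -1.60 and -1.38. Nfkb1 stood at -1.37 and Jak2 at -0.88. The highest gene was Nfyc, a subunit of the Y box factor NF-Y, at 0.61.

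**Figure D4:**
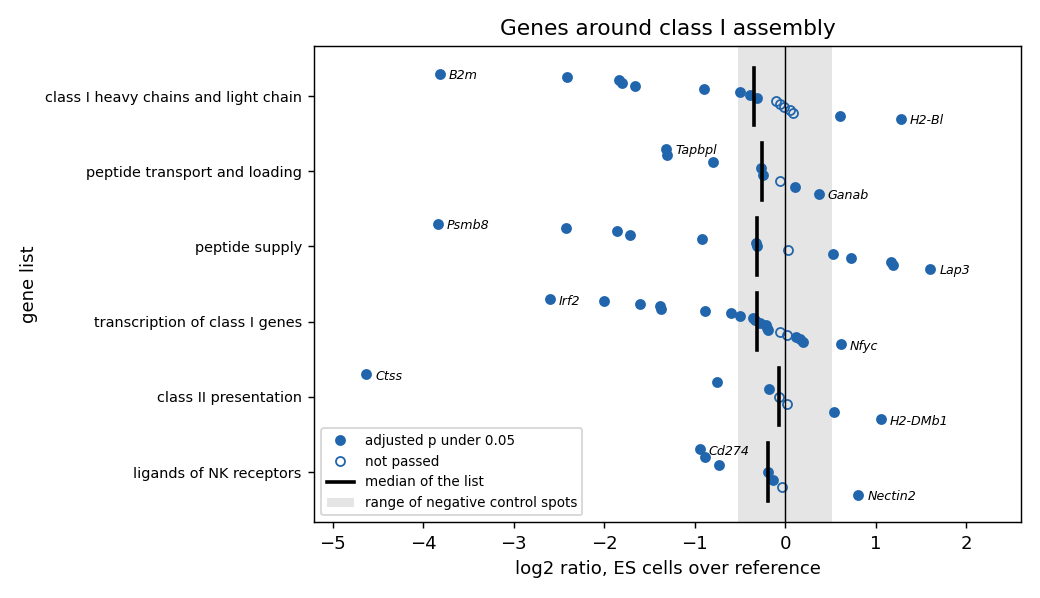
Log2 ratio of siKlf4 ES cells over reference for each measured gene of 6 lists around class I assembly, with filled points past the threshold, open points not past it, a bar at each list's median and the range of the negative control spots in grey. The list medians lie between -0.35 and -0.06, and B2m, Psmb8, Irf2 and Ctss are the lowest genes of their lists.

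Class II genes, which belong to antigen-presenting cells, lay on both sides of the reference. Of 12 listed, 7 were measured, 3 lower, 2 higher and 2 not passed, at a median of -0.06. These counts and those of the NK ligands below are to be read against 31.4% lower and 31.6% higher over all probes. Beyond the range of negative control spots lay 2 lower and 2 higher class II genes, beside 10.8% and 12.1% of all probes. H2-DMb1 and H2-DMa, chains of the class II peptide exchange factor, were higher at 1.06 and 0.54, the invariant chain gene Cd74 stood at -0.75, and the protease gene Ctss, below the limit in ES RNA, was at least 22.7-fold lower on the normalised scale. Among ligands of NK and related receptors 7 of 14 were measured, 5 lower, 1 higher and 1 not passed, at a median of -0.19. Beyond the range of negative control spots lay 3 of the lower ligands and the 1 higher. Cd274, Pvr and Cd48 stood at -0.94, -0.89 and -0.73 and Nectin2 at 0.81.

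Most of the measured members lie in the MHC region of chromosome 17, B2m being on chromosome 2. From Tapbp to H2-M3 the RefSeq table, used for the order of genes only, listed 274 genes, of which 99 were measured. The 3 transport and proteasome genes, Psmb9, Psmb8 and Tap2, are neighbours among the measured genes and were all lower. The class I genes of the region came to 16, at a median of -0.07. Of these 6 were lower, H2-Q1, H2-T23 and H2-M3 among them, 1 was higher and 9 did not pass. Beyond the range of negative control spots lay 4 of the lower and the 1 higher. Genes without a role in the lists above numbered 75, with 28 lower, 22 higher and 25 not passed, at a median of -0.03, beside 31.4% and 31.6% over all probes. Beyond the range of negative control spots lay 10 of the lower and 8 of the higher, beside 10.8% and 12.1% of all probes. The lowest of the 75 was Clic1, an intracellular chloride channel protein, at -2.70, and the highest was Pou5f1, which encodes Oct3/4, at 2.86. Pou5f1 lies between H2-Q10 and the H2-T genes, with 2 of the 16 measured class I genes on one side and 14 on the other. It read 1469 and 1762 units in siKlf4 ES cells, against 181 and 209 in the reference. Dhx16, an RNA helicase gene, stood at 2.38 and Ier3, an immediate early gene, at -2.16. Among the class I genes, H2-M10.2 stood at -2.22, next to H2-T22.

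**Figure D5:**
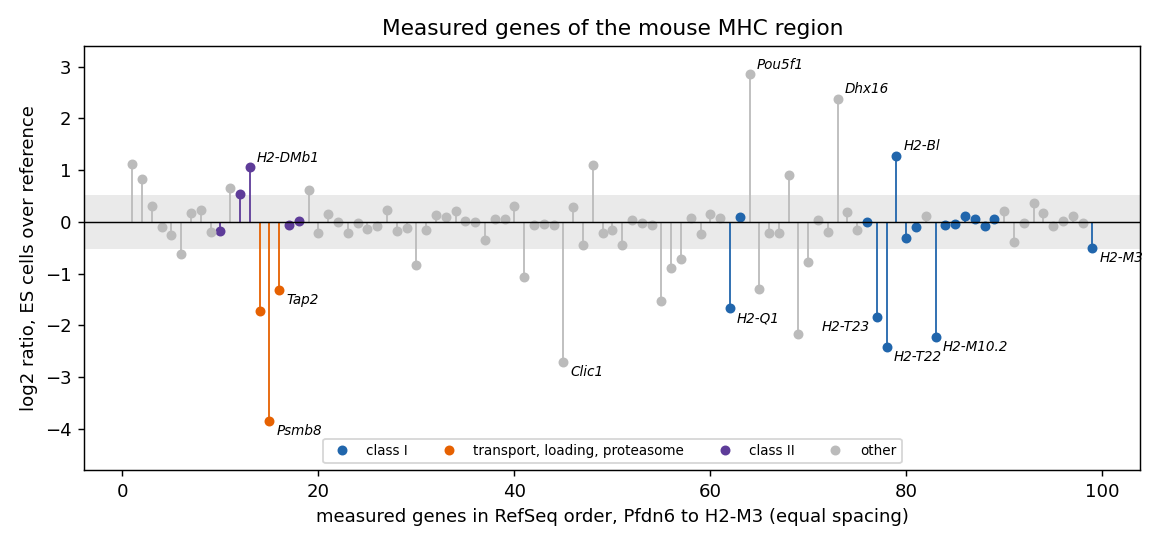
Log2 ratio of siKlf4 ES cells over reference for 99 measured genes of the MHC region in RefSeq order with equal spacing, coloured by role, with the range of the negative control spots in grey. Psmb8, Psmb9 and Tap2 stand together below the line, H2-Q1, H2-T23, H2-T22 and H2-M10.2 lie below it, and Pou5f1 stands at 2.86 between class I genes.

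Marker lists of ES cells and of cell types in the pool were set beside these ratios. Their counts are to be read against 31.4% lower and 31.6% higher over all probes. Higher beyond the range of negative control spots were 6 ES cell markers, beside 12.1% of all probes. Lower beyond it were 4 macrophage, 6 fibroblast, 2 B lymphocyte, 2 T lymphocyte and 1 liver marker, beside 10.8% of all probes. The higher lymphocyte markers lay inside it. ES cell markers were higher in 7 of 7 measured cases, with Esrrb above the limit in neither channel. All 5 measured macrophage markers were lower, and their summed signals were 4869 and 5982 units in siKlf4 ES cells against 66118 and 61725 in the reference. Spp1 alone gave 60305 and 56066 of the reference units, and the other 4 markers summed to 1022 and 1040 in siKlf4 ES cells against 5813 and 5659 in the reference. The 6 fibroblast markers were also all lower, summing to 5607 and 6876 units in siKlf4 ES cells against 75053 and 72298 in the reference. Without Vim, the brightest, the other 5 summed to 1702 and 2011 in siKlf4 ES cells against 15416 and 14992 in the reference. Of 6 B lymphocyte markers 3 were lower and 1 higher, with sums of 1981 and 2272 units in siKlf4 ES cells against 2735 and 2964 in the reference. Of 5 T lymphocyte markers 3 were lower and 2 higher, with sums of 2952 and 3279 units in siKlf4 ES cells against 2838 and 2821 in the reference. The median log2 ratio was -2.12 for the macrophage, -2.93 for the fibroblast, -0.20 for the B lymphocyte and -0.37 for the T lymphocyte markers. The sums add up unlike probes and include the channel offset, which is larger for ES RNA. The lists are not fully separate: Thy1 was in the fibroblast and T lymphocyte lists, and Ctss in the macrophage and class II lists. Of the macrophage, fibroblast and lymphocyte markers, Ctss (macrophage) and Cd3d (T lymphocyte) were the genes that stood below the limit in ES RNA on both arrays. All 3 liver markers measured were below it in ES RNA, 1 of them lower than in the reference. The part of these cell types in the class I ratios was not tested.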

How the data were processed

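RNA of 2 siKlf4 ES samples was measured on 2 two-colour Agilent arrays of 22132 spots. The authors deposited scanner files of intensity values. Per the file headers, Agilent Feature Extraction A.7.5.1 wrote the mean and background signals, the processed signals, spot flags and a log10 ratio of red over green. The authors also deposited a table of log10 values, and no source used here describes how it was made. Its values are not ratios themselves. With the mean log10 processed reference signal of the 2 arrays subtracted, they matched the scanner ratios turned to ES over reference.

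Mean signals were background-corrected in limma 3.58.1 (R 4.3.3) by normexp with offset 50 and normalised by loess within arrays, with control spots at weight 0. Outlier spots removed 24 probes. The mean log2 ratio of ES over reference was tested against 0 (lmFit, eBayes) over 21028 probes with Benjamini-Hochberg adjustment. On simulated ratios, centred on 0 except for the changed probes, the share of false calls was somewhat above the threshold set. The simulation held no offset between dyes or channels, so it cannot show how often unchanged probes pass on these arrays. Of the 162 negative control spots, 115 passed the same test in either direction. RefSeq accessions gave 10422 probes 1 symbol and left 10630 without. For genes outside the members the brightest probe was used. The 2 arrays limit the precision.

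Members and lists were chosen with earlier results of these data known. Named were all measured members and up to 6 genes of each list, by size of the ratio among those that passed. Cd1d1, Psmb5, Psmb6, Psmb10, Nfyc, the genes below the limit in both channels and the motifs were chosen after values were seen. Alternatives changed the background, normalization, offset, filter on dim probes, outlier spots or signal source, or used each array alone.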

Additional observations from a re-analysis of the deposited data

How the results depend on the processing

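The 5 members stayed lower with an adjusted p under 0.05 (limma) in each of 10 other settings, which left out no array. Their log2 ratios ran from -3.99 to -3.12 for B2m, -2.25 to -0.69 for H2-T23, -1.88 to -0.78 for H2-Q1, -1.70 to -0.42 for Tap2 and -0.66 to -0.28 for H2-M3. With each array alone, a value without a test, they ran from -3.86 to -3.77, -1.93 to -1.74, -1.68 to -1.63, -1.37 to -1.24 and -0.55 to -0.45 in the same order. Without background correction 1 member was at least 2-fold lower, and over all probes 510 were at least 2-fold higher and 467 lower, against 1068 and 1092 as reported; 3 NK ligands were then lower, as also with the filter on dim probes. With median centring, 5 genes of the class I chain list and 5 class I genes of the region were higher, 1 transport and loading gene, 2 transcription genes and 2 NK ligands were higher, and 2 class II genes of the region were lower. With offset 10, 1 transport and loading gene was higher. The processed signals, the series table and offset 100 each gave 2 higher class I genes of the region. The cause of these shifts was not tested. List medians ran from -0.70 to -0.16 for class I chains, -0.45 to -0.15 for transport and loading, -0.37 to -0.25 for supply, -0.43 to -0.15 for transcription, -0.19 to -0.02 for class II and -0.43 to -0.06 for NK ligands. In the region they ran from -0.31 to -0.02 for class I genes. No paired analysis was possible because all samples form 1 group. Each member had 1 probe, so averaging probes changed nothing. The filter on dim probes and keeping outlier spots also left every member's ratio as reported. The series table nearly repeated the member ratios of the processed signals, so these settings add little. Signals near the negative control spots limit H2-T23 and Tap2 most.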

Other observations

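Probes without a gene name that share sequence with a class I probe were looked up after the data were seen. One of them shares TCACTTCCACACTGAGAATAA, its longest run in common, with the probe of H2-Q10, and 40 of 49 aligned bases match. It read 1456 and 1878 units in siKlf4 ES cells, against 15208 and 15859 in the reference, a log2 ratio of -3.27 (limma, adjusted p = 4.92e-07), lower on both arrays. The H2-Q10 probe itself, for a class I gene known from liver, stood at 0.09 and did not pass, with 256 and 270 units in siKlf4 ES cells against 157 and 154 in the reference. Another probe without a name shares CCAAAGGCACATGTGAC with the H2-Q1 probe, with 33 of 38 aligned bases alike. It read 117 and 120 units in siKlf4 ES cells, below the negative control limit on both arrays, against 195 and 196 in the reference, and at least 2.20-fold lower on the normalised scale. One more unnamed probe, which shares a run of 15 bases with the H2-Q10 probe, stood at 0.01 and did not pass (limma, adjusted p = 0.909). No source used here names the genes of these probes. The probe of Aadac that shares a run of 16 bases with the H2-Q1 probe stood at 0.13 with a ratio in the opposite direction to H2-Q1.

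H2-M10.2, whose family is known from vomeronasal neurons, read 316 and 356 units in siKlf4 ES cells, against 1426 and 1487 in the reference, 4.65-fold lower (limma, adjusted p = 1.17e-06, log2 ratio -2.22 ± 0.042, SD, n = 2). Its relatives H2-M10.1, H2-M10.4 and H2-M10.5 stood at -0.06, -0.05 and 0.06 and did not pass, and of these H2-M10.4 alone was above the negative control limit in both channels on both arrays. No other tested gene probe shared a run of 15 bases with the H2-M10.2 probe. Whether related transcripts bind to it was not tested.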
